A study of Mus musculus with 8 samples.

Results

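Among 8 RNA-seq libraries of pancreatic tumour isografts (pieces of mouse pancreatic tumour grown in a host mouse), 2 held far more digestive enzyme mRNA than the other 6. These 2 acinar-rich libraries were compared with the 6 acinar-poor ones over all genes other than the enzymes. The acinar-rich libraries were chosen by measured enzyme values and not by a treatment: the deposited values of Cpa1, Cpb1, Cela2a, Pnlip, Ctrb1 and Cel were averaged in each library, and the 2 libraries with the highest average were taken as acinar-rich. Both of them, control 2 and control 3, carry the control label. The acinar-poor group holds control 1, control 4 and MEKi 1 to MEKi 4, the last being libraries from mice given the MEK1 and MEK2 inhibitor trametinib for 7 days. Each library comes from a different mouse and all are labelled pancreas tumour. The sources used here do not give the strain, age and genotype of hosts and grafts, what the control mice received, or how a piece was dissected.

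Acinar cells are the enzyme-producing cells of the exocrine pancreas. They store inactive enzymes (zymogens) in granules, and release them when cholecystokinin or acetylcholine raises calcium in the cell. A factor complex that contains RBPJL, together with the nuclear receptor NR5A2 and the granule-maturation factor BHLHA15 (also called MIST1), keeps this programme on, and acinar cells lose it when they take on a duct-like state. A tumour in the pancreas can enclose or adjoin normal exocrine lobules, and a bulk library then mixes their RNA with that of the tumour. In such a mixture fewer acinar cells and less enzyme RNA per cell cannot be told apart.

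The genes that made the choice are described first, without a test, since they fixed the groups. Values are on a log2-like, variance-stabilised scale whose floor, for a gene with no read, is 5.12. The average over the 6 genes, called the acinar score below, was 18.67 in control 3 and 16.92 in control 2. It was 12.86 in MEKi 4, the library just below the division, then 10.14 in control 1, 9.89 in MEKi 1, 9.17 in MEKi 2, 9.13 in control 4 and 5.82 in MEKi 3. Acinar-poor libraries therefore covered a range of 5.82 to 12.86, and only MEKi 3 lay close to the floor.

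The acinar markers were Cpb1 (a carboxypeptidase), Cela2a (an elastase) and Pnlip (the main triglyceride lipase). They are among the 6 genes of the acinar score, so their high values in the acinar-rich libraries follow from the choice. Cpb1 reached 17.22 in control 2 and 18.76 in control 3, against a lowest, median and highest value of 5.74, 9.59 and 12.96 in the acinar-poor libraries. The 27 measured digestive enzymes together took 17.4% of the reads of control 3 and 6.21% of those of control 2. Their share was 0.365% in MEKi 4, 0.0923% in control 1, 0.0544% in MEKi 1, 0.0427% in MEKi 2, 0.0371% in control 4 and 0.00259% in MEKi 3. Acinar-rich values were above all acinar-poor ones for 26 of the 27 enzymes, which include the 6 genes of the score. The exception was Dnase1, a nuclease, at 7.66 in control 2, 7.85 in control 3 and between 7.51 and 8.04 elsewhere. Outside the enzymes, both acinar-rich values were above all acinar-poor ones for 3.7% of genes.

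**Figure D1:**
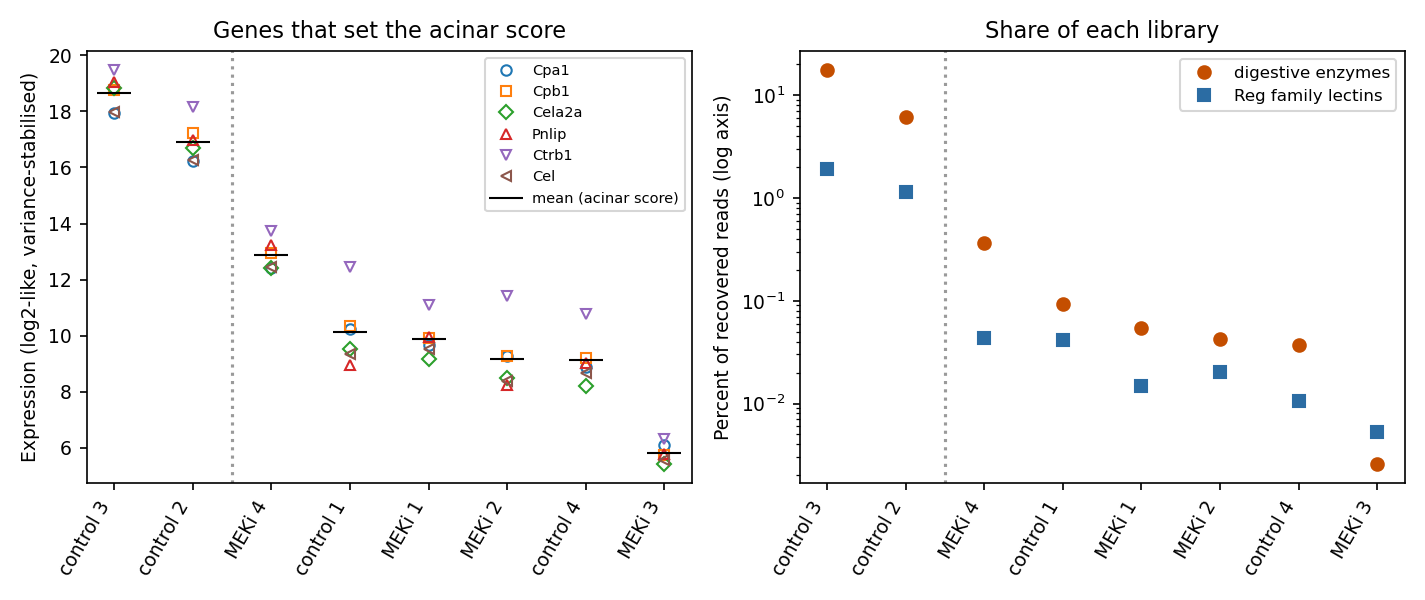
Left, log2-like expression of the 6 genes that set the acinar score in each library, with their mean as a bar; right, percent of recovered reads in digestive enzymes and in Reg family lectins, on a log axis. Libraries are ordered by score and the dotted line divides acinar-rich from acinar-poor; control 3 and control 2 had scores of 18.67 and 16.92, and MEKi 4, at 12.86, came next.

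Each library held between 20090101 and 38569550 reads in genes, with 22243966 in control 3 and 31797960 in control 2. All pairs of libraries differed by more than counting error. Even for control 4 and MEKi 1, the closest, the median squared difference was 4.38 times what sampling of reads gives. MEKi 4 stood apart in the adhesion molecule gene Epcam, at 10.70 against 12.66 or more in every other library, and in the chloride channel gene Cftr, named after its values were seen, at 6.76 against 10.96 or more. Its list mean for the 15 ductal and tumour epithelium genes was 12.20, against 12.63 or more elsewhere, and that for the 7 intestinal epithelium genes was 9.18, against 8.77 or less. MEKi 3 stood apart in haemoglobin and other red cell genes, whose list mean was 10.41 against 8.74 in control 2 and 7.51 or less in the other 6 libraries. Prostate and seminal secretion genes followed the label and not the acinar score: the 4 such genes measured had a list mean of 5.12, the floor, in all 4 MEKi libraries and between 6.48 and 7.26 in the 4 controls.

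Of 19102 genes outside the digestive enzymes, 71 were higher in the acinar-rich libraries (limma, adjusted p under 0.05), which is 0.372% of those tested, and 0 were lower (0%). The libraries had been divided by enzyme values, so this count says how many other genes went along with the enzymes and is no test of a treatment. At an unadjusted p under 0.05, 556 genes were higher and 178 lower. All 71 had both acinar-rich values above every acinar-poor value, as did 706 genes in all (3.7%), while 445 genes (2.33%) had both values below every acinar-poor value. The differences of the 71 genes ran from 0.77 (Mknk1, a kinase downstream of ERK and p38, named after its values were seen) to 7.47 (Reg2, a secreted lectin), with a median of 2.03 and 17 genes above 4. Over all genes outside the enzymes the median difference was -0.0035, and 51.0% of them were lower in sign.

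Control 3, the library with the higher acinar score, held the larger value of the acinar-rich pair for 69 of the 71 genes, against 9594 of all 19102. Without control 3 the count was 17 genes, 16 of them among the 71; without control 2 it was 82, and without control 4, a low library, 47. Leaving out either acinar-rich library leaves that group with 1 library, so that the spread comes from the acinar-poor libraries alone and the lone library is assumed to vary as they do; this holds for every such value below. Since both acinar-rich libraries are controls, acinar content and label are partly confounded: with the label as a covariate 11 genes passed, and among the 4 control libraries alone (2 against 2) 16 passed, all of them among the 71. With MEKi 4 counted as a further acinar-rich library only 2 genes passed, neither among the 71. All 71 kept a positive difference there and in each of the other 23 settings in which they were tested. That sign adds little, because in all 71 both acinar-rich values lay above every acinar-poor value of these same libraries. One of the 2 genes that passed was Itih4, a plasma protein gene chosen for mention after its values were seen. Itih4 was 9.70 in control 2, 10.33 in control 3 and 9.72 in MEKi 4, and between 6.41 and 7.40 in the remaining libraries.

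**Figure D2:**
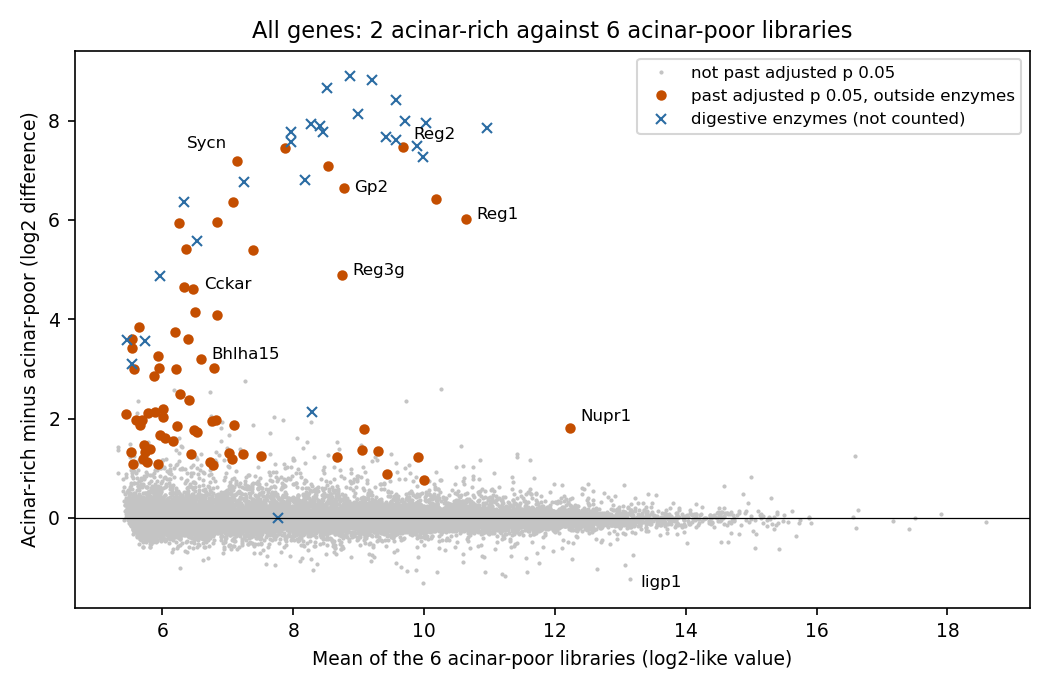
Log2 difference of each gene (acinar-rich minus acinar-poor mean) against its mean in the 6 acinar-poor libraries, with the 71 genes past the threshold as filled points, enzymes as crosses and all other genes in grey. The filled points all lie above 0, most of them are low in the acinar-poor libraries, and Nupr1, at 12.23, is the most abundant of them there.

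Most genes of the zymogen granule and of acinar secretion were higher in the acinar-rich libraries. Of 12 measured genes of this list, 8 were higher and 4 were not called, and the median difference was 5.02. Over all genes outside the enzymes 0.372% were called higher, the share beside which this and each later list count stands. Without control 3, 3 of the 12 passed, and with the label as a covariate 2 did. Sycn encodes syncollin, a protein on the inner face of the zymogen granule membrane (chromosome 7, 28540885 to 28542209, GRCm38). Its values were 13.61 in control 2 and 15.07 in control 3, and 5.43, 7.05 and 9.20 as the lowest, median and highest acinar-poor values. The groups did not overlap, the mean of normalised reads was 167-fold higher in the acinar-rich libraries, and the log2 difference was 7.20 (SE 0.80, limma adjusted p = 0.00446).

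Zg16, a lectin of the granule matrix, reached 14.36 and 16.29 in control 2 and control 3 and lay between 5.81 and 10.21 in the others, a difference of 7.45 (SE 0.94, limma adjusted p = 0.00741). Gp2, the main glycoprotein of the granule membrane, reached 14.73 and 16.10 against 7.44 to 10.71, a difference of 6.64 (SE 0.72, limma adjusted p = 0.00423). Both genes thus had no overlap between the groups and MEKi 4 as the highest of the acinar-poor libraries. Cuzd1, another granule membrane protein, differed by 5.96 and Serpini2, a pancreas-enriched serpin, by 5.94. Spink1, the trypsin inhibitor that acinar cells secrete with their zymogens, differed by 5.39. Of the remaining called members, named after their values were seen, Tmed6, a cargo receptor of the early secretory pathway, differed by 4.64 and Erp27, a redox-inactive protein of the disulphide isomerase family, by 4.08.

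The 4 genes of this list that were not called included the general secretion factors and are named after their values were seen. Rab3d, a GTPase of secretory granules in many glands, was 10.82 and 11.32 in the acinar-rich libraries and 10.45 to 10.94 in the acinar-poor ones, so the groups overlapped. Rab27b and Vamp8, other parts of the exocytosis machinery, did not pass the threshold either. Dmbt1, an epithelial scavenger receptor, was abundant everywhere: it stood at 17.44 and 18.24 against 15.53 to 17.01, which did not overlap, but the gene was not called at a difference of 1.25 (limma adjusted p = 0.651).

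All 6 measured Reg genes were higher in the acinar-rich libraries, with a median difference of 6.39. Without control 3, 2 of the 6 passed, and 4 did without control 2, without control 4 or without MEKi 1. Reg proteins are small secreted C-type lectins, made by acinar cells and strongly induced in pancreatitis, and some of them bind bacteria in the gut. The 6 genes lie together on chromosome 6, between 78370657 (start of Reg3b) and 78468872 (end of Reg3g) in GRCm38. They took 1.91% of the reads of control 3 and 1.13% of those of control 2, and 0.0434% or less in each acinar-poor library. Because they are close paralogs and no source used here gives the counting step, the division of reads among them is uncertain.

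Reg1 was 15.94 in control 2 and 17.37 in control 3, and its lowest, median and highest acinar-poor values were 9.62, 10.42 and 11.79. The difference was 6.02 (SE 0.57, limma adjusted p = 0.00259). Reg2, its neighbour, was 16.61 and 17.67 against 5.65, 10.08 and 11.90, a difference of 7.47 (SE 1.31, limma adjusted p = 0.0463). Both had the same order at the top, but Reg2 spread over 6.25 units among the acinar-poor libraries because of 1 library, MEKi 3, where only 6 reads were counted. Reg3a differed by 7.09, Reg3b by 6.42 and Reg3d by 6.36. Reg3g had the smallest difference of the family, 4.90 (SE 0.36, limma adjusted p = 0.00149), from 13.51 and 13.78 against 8.25, 8.48 and 9.67.

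Within the acinar-poor group the Reg genes differed in how they followed the enzymes: the slope on the acinar score passed the threshold for Reg2 (0.92 per unit, limma adjusted p = 0.0371) and for none of the other 5, and in Reg3g it was -0.02 (limma adjusted p = 0.955). MEKi 3, in which Cela2a had 2 reads, still held 880 reads of Reg1, 325 of Reg3b and 373 of Reg3g, while it held 6 of Reg2, 1 of Reg3a and 0 of Reg3d. Gp2, with 136 reads, and the elastase gene Cela1, named after its values were seen, with 253, were also counted there. MEKi 4 had the highest enzyme values of the acinar-poor group and the lowest Reg3g value, 8.25. Control 1, with a lower acinar score than MEKi 4, was above it in Reg3g (9.67), Reg3b (11.71 against 11.11), Reg3a (10.24 against 9.86) and Spink1 (9.27 against 7.95). Of the 71 genes, 29 were higher in control 1 than in MEKi 4, as were 9532 of all 19102.

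Promoter sequences of 4 of these genes are shown because the genes move with the enzymes to different degrees: Sycn follows the acinar score closely, Bhlha15 encodes a factor of the programme, and Reg3d and Reg3g are a pair from the same cluster of which the first had no read in MEKi 3 and the second was still well counted there. Each is the stretch of 250 bases before the RefSeq transcription start (GRCm38.p6), read 5′ to 3′ on the strand of the gene. Capitals mark the E-box CANNTG, the motif of bHLH factors such as BHLHA15, and TTTCCC, the core bound by RBPJ-type factors such as RBPJL, the latter written GGGAAA where it lies on the other strand; both strands were searched.
Sycn, chr7:28540635-28540884, plus strand: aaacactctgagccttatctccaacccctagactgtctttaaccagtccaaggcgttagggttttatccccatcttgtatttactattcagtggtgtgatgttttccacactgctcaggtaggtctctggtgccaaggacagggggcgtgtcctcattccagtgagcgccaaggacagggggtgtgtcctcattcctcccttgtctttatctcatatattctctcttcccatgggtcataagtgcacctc
Bhlha15, chr5:144190036-144190285, plus strand: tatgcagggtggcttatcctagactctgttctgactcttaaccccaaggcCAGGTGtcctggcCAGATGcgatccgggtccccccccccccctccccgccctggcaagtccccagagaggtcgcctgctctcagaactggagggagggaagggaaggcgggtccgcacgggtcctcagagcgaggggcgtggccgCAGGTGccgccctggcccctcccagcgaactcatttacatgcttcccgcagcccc
Reg3d, chr6:78378866-78379115, minus strand: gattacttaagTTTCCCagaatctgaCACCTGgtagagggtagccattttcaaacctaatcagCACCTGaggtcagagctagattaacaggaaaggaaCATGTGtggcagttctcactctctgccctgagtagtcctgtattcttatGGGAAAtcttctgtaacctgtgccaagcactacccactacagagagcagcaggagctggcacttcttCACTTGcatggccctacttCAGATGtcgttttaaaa
Reg3g, chr6:78468875-78469124, minus strand: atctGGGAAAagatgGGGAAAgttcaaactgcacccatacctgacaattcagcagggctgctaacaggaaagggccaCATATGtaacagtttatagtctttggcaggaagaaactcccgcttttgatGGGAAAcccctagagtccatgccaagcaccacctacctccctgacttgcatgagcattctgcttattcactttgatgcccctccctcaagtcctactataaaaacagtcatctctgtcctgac
The Sycn stretch held neither motif. Bhlha15 held 3 E-boxes and no TTTCCC, Reg3d 5 E-boxes and 2 TTTCCC, and Reg3g 1 E-box and 3 TTTCCC.

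RefSeq promoters were matched by symbol for 54 of the 71 genes, which gave 69 stretches. The E-box was found in 78.3% of them and in 66.2% of all 32851 stretches of the same length in the table. TTTCCC was found in 21.7% and 21.9%, and both motifs together in 15.9% and 14.2%. The short motifs were thus common in any promoter, and these shares describe letters in a window and not binding.

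Of the acinar transcription factors, 3 of 5 measured genes were higher; Ptf1a was not analysed here. Without control 3, 1 of the 5 passed, and 2 did without control 2, control 4, MEKi 1, MEKi 2 or MEKi 4. Rbpjl was 10.15 in control 2 and 11.15 in control 3, and 5.12, 6.66 and 7.25 as the lowest, median and highest acinar-poor values. The difference was 4.16 (SE 0.52, limma adjusted p = 0.0069), and MEKi 3 had 0 reads. Bhlha15 was 9.14 and 10.42 against 6.26, 6.53 and 6.99, a difference of 3.19 (SE 0.32, limma adjusted p = 0.00295). Unlike Rbpjl, Bhlha15 hardly varied among the acinar-poor libraries and was not at its lowest in MEKi 3, where it stood at 6.45. Nr5a2 differed by 1.77 (SE 0.30, limma adjusted p = 0.0351), from 7.94 and 8.59 against 5.84 to 7.04. Its call was lost in 14 of the 24 alternatives, among them voom on the recovered reads (limma adjusted p = 0.0529).

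The other members of the list, Gata4 and Xbp1, are not restricted to acinar cells and are named after their values were seen. Xbp1, the transcription factor of the unfolded protein response, was 12.82 and 13.02 against 12.27 to 12.73, and it was not called at a difference of 0.41 (limma adjusted p = 0.789).

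**Figure D3:**
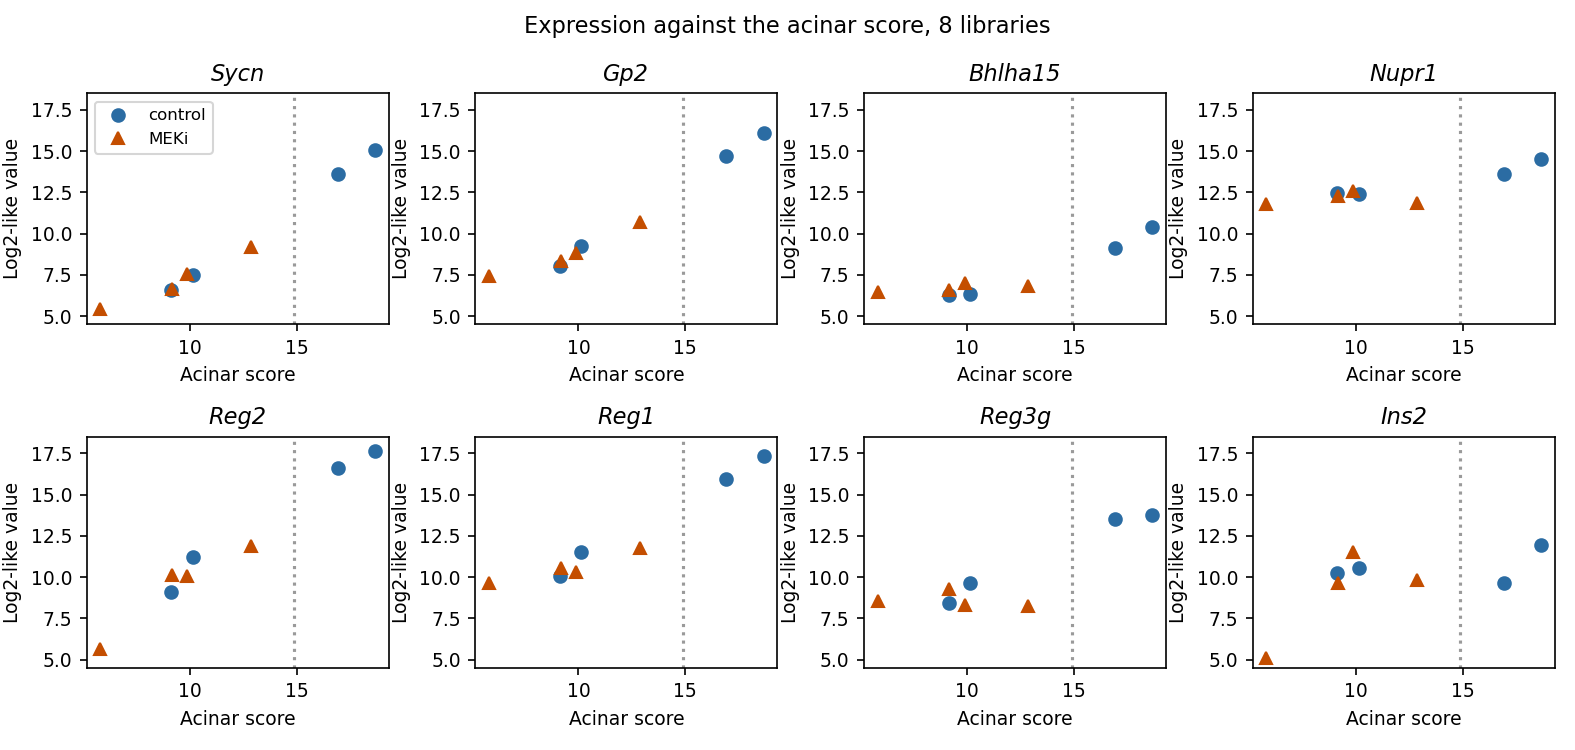
Log2-like value of 8 genes against the acinar score in the 8 libraries, control as circles and MEKi as triangles, with the dotted line between acinar-poor and acinar-rich. Sycn and Reg2 climb over the whole range, whereas Bhlha15, Nupr1 and Reg3g do not climb steadily among the acinar-poor libraries and are higher in control 2 and control 3; Ins2, which was not called, overlaps between the groups.

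Receptors through which secretion is triggered were also among the 71 genes. Cckar, the cholecystokinin receptor of acinar cells, was 10.48 in control 2 and 11.69 in control 3 against a lowest, median and highest value of 5.34, 6.54 and 7.32, a difference of 4.61 (SE 0.51, limma adjusted p = 0.00446). Chrm3, the muscarinic acetylcholine receptor of secretory glands, was 6.74 and 7.04 against 5.56 to 5.98, a difference of 1.13 (SE 0.15, limma adjusted p = 0.0113). Neither gene overlapped between the groups, though Chrm3 rested on 57 and 52 reads in control 2 and control 3. The remaining 6 of the 8 measured genes of this list, which include the calcium channels Itpr2 and Itpr3 and the G protein gene Gnaq, were not called, and the list's median was 0.52. Without control 3 neither receptor passed.

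Among 9 ion and water transport genes 1 was called. This was Aqp12, a water channel found inside acinar cells, at 8.49 and 9.79 against 5.12 to 6.08, a difference of 3.61 (SE 0.35, limma adjusted p = 0.00259). Aqp8, the water channel of the acinar apical membrane, was 6.38 and 7.62 against 5.12 to 5.84 and did not pass (limma adjusted p = 0.0709); it rested on 33 and 97 reads. Without control 2, 2 of the 9 passed. The median of the list was 0.14.

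Amino acid and creatine metabolism, in which the exocrine pancreas is unusually active, gave 3 calls among 15 measured genes. All 15 had a positive difference, with a median of 1.05. The calls numbered 5 without control 2, 1 without control 3 and 2 without MEKi 1 or MEKi 2. Slc38a3, a glutamine transporter, was 9.51 and 10.48 against 5.50 to 6.99, a difference of 3.60 (SE 0.37, limma adjusted p = 0.00301). Mat1a, which makes S-adenosylmethionine, differed by 2.13 (limma adjusted p = 0.0234), and Gnmt, which uses it to methylate glycine, by 2.03 (limma adjusted p = 0.00545). Neither overlapped between the groups. For the creatine pathway the values pointed the same way without a call: Gatm, which makes the precursor guanidinoacetate, was 11.39 and 11.89 against 10.14 to 10.96 (limma adjusted p = 0.088), and Gamt, which methylates it to creatine and is named after its values were seen, was 8.44 and 9.17 against 7.50 to 7.80 (limma adjusted p = 0.0587). Slc38a5, another glutamine transporter named after its values were seen, was 7.27 and 8.69 against 5.12 to 6.61 (limma adjusted p = 0.0553).

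General machinery of the endoplasmic reticulum (ER), which acinar cells share with every secreting cell, differed much less. Of 21 ER chaperones and unfolded protein response genes 0 were called, and their median difference was 0.15. Across 25 genes of translocation and glycosylation 0 were called and the median was 0.079. At an unadjusted p under 0.05 the counts were 3 of 21 and 2 of 25, and 734 of all 19102 genes outside the enzymes, in either direction. In sign 17 of the 21 and 20 of the 25 were higher, where 48.99% of all genes were. The chaperone list mean was 12.21 in control 2 and 12.26 in control 3, against 11.91 to 12.10 in the acinar-poor libraries. For translocation and glycosylation it was 11.84 and 11.92 against 11.64 to 11.83. Both lists thus lay slightly higher in the acinar-rich libraries, without overlap of the list means. Hspa5, the chaperone BiP, was 15.00 in control 2 and 14.99 in control 3, within the acinar-poor range of 14.35 to 15.16. Sel1l, a subunit of the ER-associated degradation complex, came nearest to the threshold, at 12.41 and 13.16 against 11.44 to 12.07 (limma adjusted p = 0.0527). It passed in 5 of the 24 alternatives, for example without MEKi 4 (difference 1.26, limma adjusted p = 0.0162). Outside those lists, and named after their values were seen, Derl3, a degradation factor of secretory cells, differed by 1.95 (limma adjusted p = 0.00795) and Ero1lb, the pancreatic oxidase that drives disulphide formation, by 1.35 (limma adjusted p = 0.0324).

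**Figure D4:**
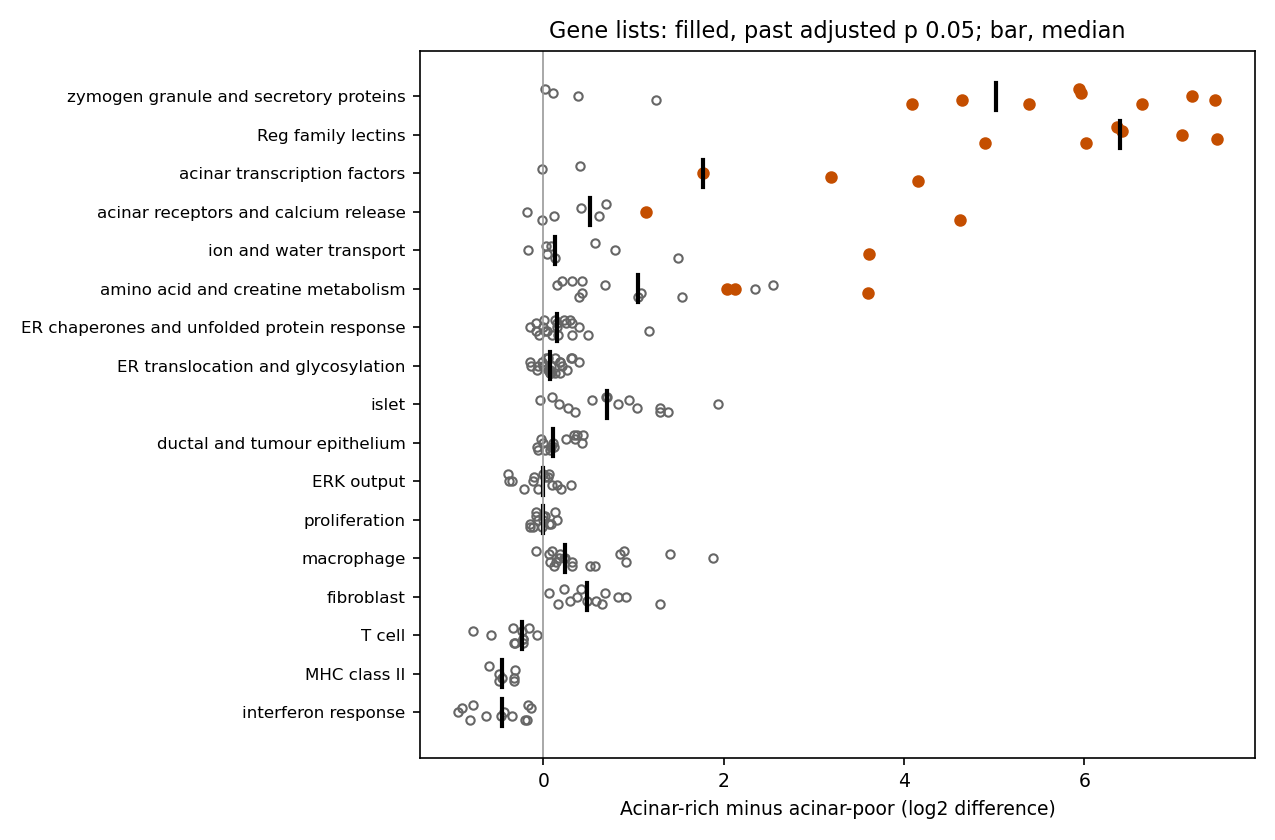
Log2 difference (acinar-rich minus acinar-poor) of every measured member of 17 gene lists, with filled points for genes past the limma threshold, open points for the rest and a bar at the median. Zymogen granule genes and Reg lectins reach medians of 5.02 and 6.39, while the ER lists, tumour epithelium, ERK output and proliferation sit near 0.

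Further genes among the 71 belong to no list, and those described here were chosen after their values were seen. Klk1b5, a tissue kallikrein related to the enzyme Klk1, differed by 3.84, and Cblif, the intrinsic factor that carries vitamin B12 and in rodents is best known from the stomach, by 3.26. Hsd17b13, a lipid droplet protein, differed by 3.75, Ggt1, which breaks down glutathione outside the cell, by 3.02, and Slc39a5, a zinc importer, by 3.01. Each of these had no overlap between the groups. Several genes better known from liver were present in the same direction: Vtn (vitronectin) differed by 2.49, Serpina10 (an inhibitor of coagulation proteases) by 2.37, Habp2 (a plasma protease) by 1.98 and Fetub (a plasma protease inhibitor) by 1.84. The liver list itself, of which 4 genes were measured, had 0 called genes and a median of -0.099. Klf15, a transcription factor of amino acid metabolism, was 7.81 and 8.57 against 5.79 to 6.32, a difference of 2.18 (limma adjusted p = 0.00301).

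Injury and acute phase genes gave 2 calls among 10 measured, 1 of them Reg3b, which is also a Reg gene. The other was Nupr1, a small chromatin protein that is induced in acinar cells by stress. It was 13.59 in control 2 and 14.51 in control 3, and 11.78, 12.35 and 12.56 as the lowest, median and highest acinar-poor values, a difference of 1.82 (SE 0.27, limma adjusted p = 0.0191). The groups did not overlap, and the gene was abundant everywhere. It lost its call in 7 of the 24 alternatives, with the label as a covariate at a limma adjusted p of 0.253 and without control 3 at 0.369. The list's median was 0.16, and without control 3 neither gene passed. Serpina3n, an acute phase serpin outside the list and named after its values were seen, was 10.97 and 10.76 against 8.43 to 9.67, a difference of 1.79 (SE 0.32, limma adjusted p = 0.0481). It was 1 of the 2 genes among the 71 in which control 2 was above control 3.

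Islet genes, which mark the endocrine part of the pancreas, leaned higher in sign but overlapped between the groups. Of 15 islet genes 0 were called, with a median difference of 0.71. At an unadjusted p under 0.05 there were 2 of the 15, and 734 of all 19102 genes outside the enzymes, in either direction. In sign 14 of the 15 were higher, where 48.99% of all genes were. Their list mean was 7.19 in control 2 and 8.39 in control 3, against 5.67 to 7.75 in the acinar-poor libraries. Ins2 (insulin) was 9.62 in control 2 and 11.96 in control 3, and 5.12, 10.06 and 11.54 as the lowest, median and highest acinar-poor values. Control 2 therefore lay below the acinar-poor median although its digestive enzymes were high. MEKi 1, an acinar-poor library, held 3202 Ins2 reads against 836 in control 2, and MEKi 3 held 0. Gcg (glucagon) was 8.99 and 11.44 against 5.34 to 9.95, again with overlap. MEKi 3 was thus the lowest library in the enzymes and in these hormones alike.

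Tumour epithelium and tumour signalling differed little. Of 15 ductal and tumour epithelium genes 0 were called, with a median of 0.11. Krt19, a keratin of ductal cells, was 14.88 and 14.55, inside the acinar-poor range of 14.23 to 14.87 or just above it. The 15 ERK output genes, which the MEK pathway drives, had a median of -0.0035 and 0 calls. Their list mean was 10.67 in control 2 and 9.25 in control 3, and 9.06 to 10.82 in the acinar-poor libraries, so the acinar-rich pair itself was split. Dusp6, the ERK phosphatase and the best known of these genes, showed that split at 12.14 in control 2 and 9.31 in control 3. Of the 14 proliferation genes 0 were called, and their median was -0.0078.

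Fibroblast and macrophage genes leaned higher in sign without a call. All 13 fibroblast genes and 18 of 19 macrophage genes had positive differences, with medians of 0.49 and 0.25, where 48.99% of all genes were higher in sign. Control 2 carried most of this: the fibroblast list mean was 13.55 in control 2, 12.99 in control 3 and 12.39 to 13.03 in the acinar-poor libraries. The macrophage list mean was 10.85 in control 2 and 10.36 in control 3, and 10.03 to 10.36 elsewhere. Without control 2 the medians were 0.20 and 0.037. Marco, a scavenger receptor of resident macrophages, had the smallest p of its list, at 8.92 and 8.29 against 5.92, 6.82 and 7.28, with no overlap (difference 1.88, limma adjusted p = 0.082). Adgre1, the macrophage marker F4/80, was 11.26 and 10.74 against 9.99 to 10.87. The part of these cells in the differences above was not tested.

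Although 0 genes were called lower, the interferon-inducible genes were low in the acinar-rich libraries in sign. All 12 measured interferon response genes, all 7 MHC class II genes and all 11 T cell genes had negative differences, with medians of -0.45, -0.45 and -0.23, where 51.0% of all genes were lower in sign. The 9 mitochondrially encoded genes were also all lower in sign, with a median of -0.18 and 0 calls. Of the 12 interferon genes 4 had an unadjusted p under 0.05, where 178 of all 19102 genes outside the enzymes were lower at that p. Gbp2, a GTPase that interferon-gamma induces, was 12.40 in control 2 and 11.88 in control 3, and 12.54, 13.21 and 13.46 as the lowest, median and highest acinar-poor values, a difference of -0.94 (SE 0.27, limma adjusted p = 0.486). Both values lay below every acinar-poor value, though control 2 missed the nearest, MEKi 2, by little. Iigp1, Tgtp1 and Igtp, GTPases of the same response that attack the vacuoles of intracellular parasites, were chosen after their values were seen. Iigp1 was 12.11 and 11.75 against 12.52 to 13.70, a difference of -1.22 (limma adjusted p = 0.395), and Tgtp1 and Igtp differed by -1.09 and -1.08.

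The list means show that control 3 carried this direction. For the interferon list control 3 stood at 8.79, below every other library, but control 2, at 9.66, was inside the acinar-poor range of 9.51 to 10.08. Without control 3 the median difference of the list was 0.0053. MHC class II stood at 12.74 in control 2 and 12.29 in control 3 against 12.36 to 13.52, and the T cell list at 8.27 and 8.04 against 7.68 to 9.17. Both overlapped between the groups, with control 1 and MEKi 2 as low as the acinar-rich pair.

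**Figure D5:**
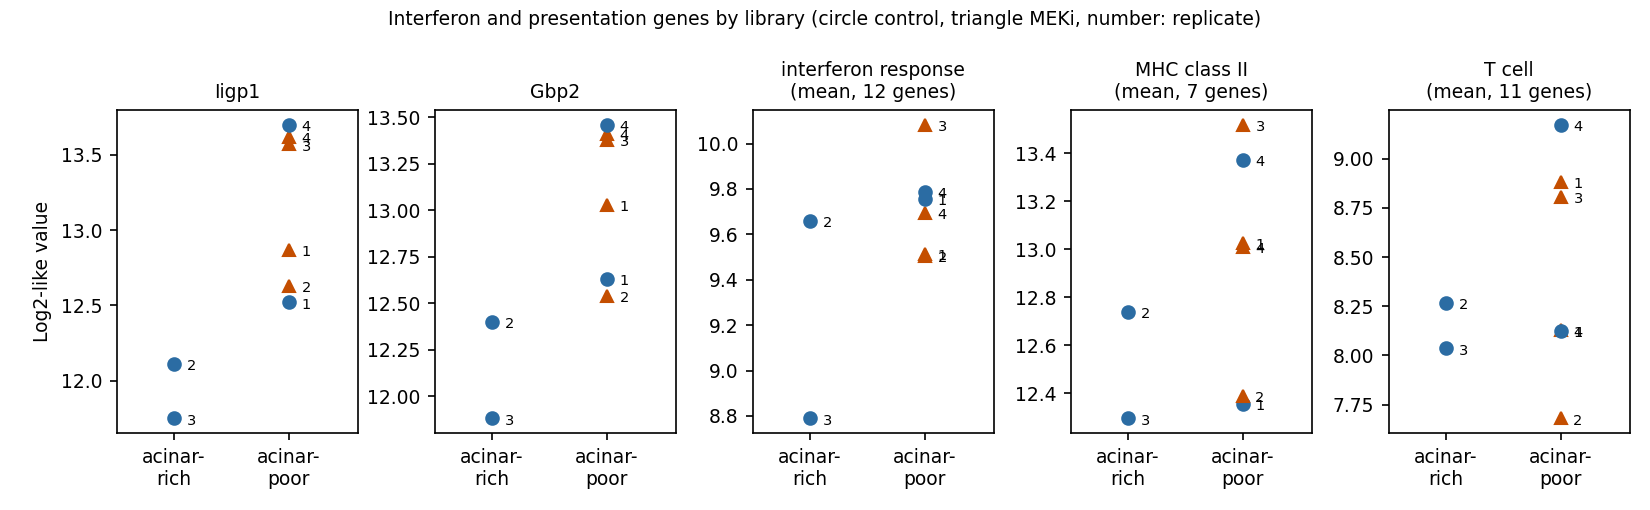
Log2-like value of Iigp1 and Gbp2 and list means of interferon, MHC class II and T cell genes in each library, with acinar-rich left, acinar-poor right, circles for control, triangles for MEKi and the replicate number beside each point; the vertical axes do not start at 0 and differ between panels. For Iigp1 and Gbp2 both acinar-rich libraries lie below all others, whereas in the interferon list only control 3, at 8.79, does; none of these differences passed the threshold.

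The spread of the acinar score inside the acinar-poor group allowed a second comparison, without the libraries that define the acinar-rich group. Over these 6 libraries 7 genes outside the enzymes rose with the score (0.0366%) and 4 fell (0.0209%), by the slope in limma at an adjusted p under 0.05. The 7 were Cuzd1, Zg16, Sycn, Reg2, the long non-coding RNA 1810028F09Rik, Rgs5 (a regulator of G protein signalling in pericytes) and Ndrg1 (a hypoxia-induced gene), all named here, as are the 4 that fell, because they passed. The first 5 were also among the 71 genes. Cuzd1 rose by 0.45 per unit of score (SE 0.04, limma adjusted p = 0.00393), Zg16 by 0.63 (SE 0.06) and Sycn by 0.54 (SE 0.06). Of the 71 genes, 52 had a positive slope, as did 9234 of all 19102.

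Rgs5 and Ndrg1 behaved differently from the granule genes. Rgs5 was 10.43 in MEKi 3 and 12.68 in MEKi 4, the ends of the score, but 11.88 and 11.40 in the acinar-rich libraries, inside that range. Ndrg1 likewise ran from 11.91 in MEKi 3 to 13.79 in MEKi 4 and was 13.02 and 13.18 in control 2 and control 3. The 4 genes that fell were the immunoglobulin genes Igha, Igkc and Igkv10-96 and the epithelial surface gene Plet1. Igha was 12.16 in MEKi 3, 7.19 in MEKi 4 and 8.91 and 8.65 in the acinar-rich libraries. MEKi 3 and MEKi 4 set these slopes: without MEKi 3 all 4 were no longer called, nor were Rgs5, Ndrg1, Cuzd1 and Reg2, although 22 genes passed in all, and without MEKi 4, where 27 passed, the calls of Rgs5, Zg16, Sycn, 1810028F09Rik, Igkc, Igkv10-96 and Plet1 were lost.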

How the data were processed

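Strand-specific total RNA libraries of 8 isografts were sequenced on a HiSeq instrument after TRIzol and column extraction, per the labels' protocols. The submitters' processing notes name STAR 2.5.3a, DESeq2 1.18.1 and GRCm38; no source used here gives the counting step, annotation or filter. The deposited values are on a log2-like scale that the authors reached by variance stabilisation, as the name of the table states, which understates changes of low genes. Inverting the transformation gave whole reads (within 0.01) for 100% of values, so depth and folds come from recovered reads. Of 19431 rows, 32 named no gene (at most 0.167% of reads) and were left out, and 86 repeated symbols were each represented by their most abundant row: 19129 genes, 19058 matched to reference names. Coordinates are from GENCODE for GRCm38.

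Acinar-rich and acinar-poor libraries were compared with limma 3.58.1 in R 4.3.3 (lmFit, eBayes with trend), two-sided, without covariates, with Benjamini-Hochberg adjustment over 19129 genes and a threshold of 0.05; intervals and SE are limma's. The slope on the acinar score was fitted likewise over the 6 acinar-poor libraries. The members, the 40 gene lists (440 of 495 entries measured) and the tests were chosen with earlier results of these data known. A list is described by counts and its median; a list mean is the mean of its measured genes. Genes named are the 12 largest in each direction past the threshold with non-overlapping groups, up to 3 per list described (or the smallest p), 26 genes set beforehand (1 of them is not reported here), others marked as chosen after their values were seen, all genes past the threshold of the slope, and list members given without values; the part of the rule that ranks genes by likeness to the score was not used. The replicate numbers were not taken to pair the libraries. Same-numbered control and MEKi libraries, centred within each label, had correlations of -0.35, 0.22, -0.39 and 0.16. Differently numbered libraries were not compared in this way, so the correlations cannot decide whether a pairing exists. Each mouse gave 1 library, so p-values rest on the spread between mice within the 2 groups. In the acinar-poor group that spread also takes in any difference between control and trametinib-treated mice. The p-values do not account for the choice of the acinar-rich libraries by their enzyme values. Both tests were run on simulated data in which groups and score were fixed and noise was independent between genes. Those simulations do not cover the choice of groups by enzyme values. The alternatives comprised quantile normalization, aligned medians, moderation that was robust or had no trend, voom on recovered reads with and without enzyme reads in the library sizes, low-value filters, array weights, a minimum difference of 1, label as covariate, controls only, a replicate block, 3 acinar-rich libraries, another enzyme set, a slope over all libraries and leaving out each library. The alternative without MEKi 3 and MEKi 4 was added after seeing the data. Plots used matplotlib 3.10.9.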

Additional observations from a re-analysis of the deposited data

Results flagged for a closer look

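Among 119 sets of 6 acinar-poor values examined for a library far from the others, 12 had one. Some sets are genes named after their values were seen, and some list means share genes with other sets. The 12 therefore cannot be set against a rate that chance would give. The single gene values were 12.07 for Sel1l, 10.70 for Epcam and 6.76 for Cftr in MEKi 4, and 5.12 for Ins2 and 15.53 for Dmbt1 in MEKi 3. Derl3 at 6.34 and Gamt at 7.50 were lowest in control 1. List means that stood apart were 11.64 for ER translocation and 9.18 for intestinal epithelium in MEKi 4, and 13.53 for mitochondrially encoded genes, 7.41 for adipocyte genes and 10.41 for red cell genes in MEKi 3. In each case the gap to the nearest library took up most of the range of the 6 values.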

How the results depend on the processing

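By the slope over all libraries 59 genes were higher, 43 of them among the 71 higher genes of the main comparison. The count of 71 was 52 to 96 under 13 alternatives that changed moderation, scaling, filter, weights, threshold or enzyme set, or used that slope. Choosing by all digestive enzymes took the same 2 libraries as acinar-rich, so its count of 71 could not differ. The count of 52 came from keeping the 75% of genes with the highest mean, where 55 of the 71 were tested. It was 11 with the label as a covariate, 16 in the controls alone and 2 with 3 acinar-rich libraries. Leaving out 1 library gave 17 to 82. A replicate block gave 64, of which 45 were among the 71, although it is not known whether the numbers pair the libraries. The count of 0 lower genes was 1 after quantile normalization (mt-Nd1) and 1 with the replicate block (Ighg2c, -3.76), and 0 to 0 on leaving out 1 library. The slope count of 11 was 6 with the label as a covariate and 8 to 27 on leaving out 1 library.

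Genes that were not called and turned sign did so as follows. Under quantile normalization Hspa5 was -0.22 and Krt19 -0.17; with array weights Hspa5 was -0.020, Krt19 -0.0066, Adipoq -0.11 and Dusp6 0.33. With the label as a covariate, and in controls alone, Hspa5 was -0.028, Adipoq -0.029, Dusp6 0.0099 and Mki67 0.072. With the replicate block Krt19 was -0.025, Cd3e 0.10 and Cftr -0.15. With 3 acinar-rich libraries Hspa5 was -0.23, Krt19 -0.17, Epcam -0.71, Adipoq -0.074 and Cftr -1.52, and by the slope over all libraries Hspa5 was -0.033, Krt19 -0.046, Epcam -0.097 and Cftr -0.35. Without MEKi 3 and MEKi 4, an alternative chosen after seeing the data, Hspa5 was -0.061, Krt19 -0.033, Epcam -0.036, Adipoq -0.034, Dusp6 0.12 and Mki67 0.0085. Leaving out 1 library moved Hspa5 from -0.017 to 0.14, Krt19 from -0.093 to 0.24, Csf1r from -0.076 to 0.71, Pecam1 from -0.076 to 0.86, Adipoq from -0.031 to 0.21, Dusp6 from -1.63 to 1.20 and Mki67 from -0.45 to 0.22. The causes were not tested. Without control 2 or control 3 the acinar-rich group holds 1 library, assumed to vary like the others. The lowest total of a tested gene over the 8 libraries was 25 reads.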
